A study of Rattus norvegicus with 4 samples.

Results

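Transcripts of the SNARE, ESCRT and VPS membrane traffic genes were measured in a rat alveolar macrophage line, NR8383, exposed to carbon black for 4 h. Members were chosen by name alone: every rat RefSeq symbol made of Stx, Vamp, Snap23, Snap25, Snap29, Vti1, Chmp or Vps and a number qualified, whatever its level. This gave 71 symbols, of which 60 were matched to a probe through its transcript accession, out of 16570 named genes with a probe. The other 11, which are not described by any value here, were Chmp2b, Chmp4b, Stx16, Vamp9, Vps13c, Vps13d, Vps37c, Vps41, Vps51, Vps8 and Vti1b.

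The series asked how transcript levels change in these macrophages when carbon black is added. All 4 arrays analysed here came from 1 group of biological replicates, NR8383 cells (obtained from the American Type Culture Collection, lung origin, after 20 passages) given Printex 90 carbon black at 0.9 cm²/cm² for 4 h, each on its own 1-colour Agilent array. Incubations without particles were not analysed here, so no fold change or effect of carbon black was computed, and the values are levels in exposed cells and their spread between replicates. NR8383 is 1 cell line grown with serum, partly adherent and partly floating, and the label "lung" names the organ the line came from, not lung tissue.

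SNARE proteins sit on vesicles and on their target membranes, where a coiled bundle of Q-SNAREs and an R-SNARE pulls both membranes together until they fuse. ESCRT complexes work in the opposite geometry: they bend membrane away from the cytosol and cut its neck, which forms the inner vesicles of late endosomes and also seals damaged membranes. VPS proteins, named after yeast mutants in vacuolar protein sorting, include ESCRT subunits, the tethers that hold membranes before fusion, and the retromer coat that returns receptors from endosomes. Alveolar macrophages use this machinery to mature phagosomes that hold inhaled particles and to fuse them with lysosomes.

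Promoter sequences are shown first, because the windows of 6 members held the 8-base palindrome TCACGTGA. This is the core of the CLEAR element, through which TFEB and related factors are known to act on lysosomal genes. RefSeq windows of assembly GRCr8 were available for 59 of the 71 symbols and were searched on both strands. Each reached from 250 bases before to 50 after a start position given for the gene. The stretches below run 5′ to 3′ along the gene's strand, with capitals marking each match. They lie at chr11:97113299-97113386 (minus strand) for Snap29, chr13:69882501-69882588 (plus) for Stx6, chr8:53595368-53595443 (minus) for Vps11, chr3:138075598-138075685 (plus) for Vps16, chr20:30976880-30976939 (minus) for Vps26a and chr12:38685437-38685533 (plus) for Vps33a.
Snap29: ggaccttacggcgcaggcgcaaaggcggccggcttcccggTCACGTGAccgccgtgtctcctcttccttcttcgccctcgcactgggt
Stx6: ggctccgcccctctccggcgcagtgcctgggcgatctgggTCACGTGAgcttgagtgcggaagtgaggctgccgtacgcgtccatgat
Vps11: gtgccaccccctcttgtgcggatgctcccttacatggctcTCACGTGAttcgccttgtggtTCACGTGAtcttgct
Vps16: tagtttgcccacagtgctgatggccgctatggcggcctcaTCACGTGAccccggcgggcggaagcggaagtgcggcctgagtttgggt
Vps26a: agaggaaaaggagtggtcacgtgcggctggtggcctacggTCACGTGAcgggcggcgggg
Vps33a: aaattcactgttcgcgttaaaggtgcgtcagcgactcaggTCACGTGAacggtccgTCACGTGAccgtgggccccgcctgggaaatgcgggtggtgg

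Among these 6 genes, Vps11, Vps16 and Vps33a encode 3 of the 4 core subunits that the HOPS and CORVET tethers share, and the fourth, Vps18, had no match in its window. Snap29 and Stx6 encode Q-SNAREs, and Vps26a encodes a retromer subunit. Vps11 and Vps33a held 2 matches each. Relative to the start that set the window, the first base of a match lay between 5 bases (Vps11) and 151 bases (Snap29) before it. For Vps11, Vps16, Vps26a and Vps33a that start lay inside the gene's annotated span. A match of Vps26a and one of Vps33a also lay inside the span. The Vps11 match nearest the start crossed it, and the Vps16 match lay outside the span.

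The palindrome was present in 10.2% of the 59 member windows, in 1.86% of the 6678 windows of genes well above background on all 4 arrays and in 0.860% of all 27457 windows. Of the 46 member windows whose gene was well above background on all arrays, 13.0% held it. The shorter E-box CACGTG, which every such palindrome contains, was present in 10 member windows (16.9%), against 6.63% of all windows. Of the 46 windows of detected members 19.6% held it, against 10.0% of detected genes' windows. Besides the 6 genes above, the members with it were Vps26c, Vps37b, Vps50 and Vps8. All 10 windows also matched TCACGTG, which 6.02% of detected genes' windows and 3.41% of all windows held. These are matches of letters, with no test, and no binding was measured.

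The other searched motifs were counted in the same sets. The ETS core CCGGAAG was in 27.1% of member windows, 21.1% of detected genes' windows and 9.21% of all windows. The GC box GGGCGG was in 64.4%, 62.5% and 34.7% of the same sets, and CCAAT in 33.9%, 39.4% and 37.7%. TATAAA was in 3 member windows (5.08%, against 6.98% and 14.3%), those of Stx19, Vps33b and Vps37c, and the cyclic AMP element TGACGTCA was in 4 (6.78%, against 3.46% and 1.89%). These member shares include members without a probe or signal. In windows of detected members alone they were 32.6% (ETS core), 60.9% (GC box), 37.0% (CCAAT), 4.35% (TATAAA) and 8.70% (TGACGTCA). Member windows had a median GC content of 61.3% and a median of 22 CpG, detected genes 60.7% and 21, and all windows 52.3% and 7.

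**Figure D1:**
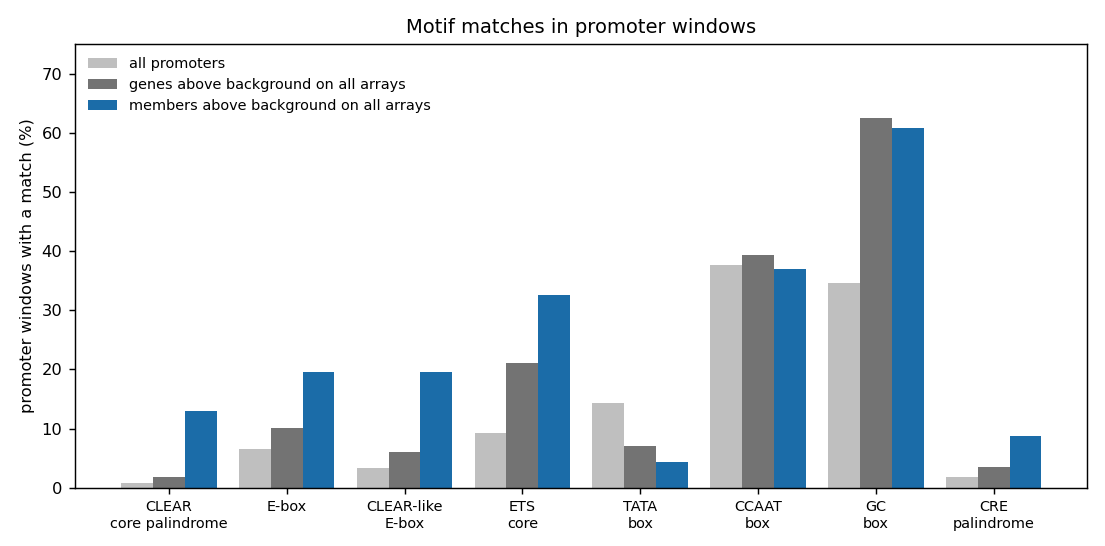
Share of promoter windows (%, bars from 0) with at least 1 match to each searched motif, in all windows, in windows of genes well above background on all arrays and in windows of members well above background on all arrays. The CLEAR core palindrome was in 13.0% of detected members' windows against 1.86% of detected genes' windows, while the GC box stood at 60.9% and 62.5%.

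An array carried 58717 spots besides controls, representing 45598 probes, and between 17078 and 18635 of the probes (37.5% to 40.9%) were marked well above background by the scanner software. No spot was saturated. A level is the log2 of processed intensity after subtraction of the 75th percentile of that array's probes, so 0 is that percentile, and it describes the signal of a gene's own probe. Probes differ in how strongly they bind, so levels are set side by side between arrays and never between genes. In these RNA pools, fewer cells with a transcript and less transcript per cell cannot be told apart. With 4 arrays each SD is itself imprecise. The labelled cell type was checked against its markers: all 8 macrophage genes (Cd68, Ptprc, Spi1, Csf1r, Mrc1, Lyz2, Fcgr1a and Itgam) had signal on every array, none of 6 epithelial genes had signal on any, and of 6 genes of T cells, fibroblasts and endothelium only Cdh5 did, on 2 arrays.

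The machinery was broadly detected. Of the 60 measured genes, 54 (90%) had signal well above background on every array, 6 had none on any array and 0 lay between, while 48.0% of named genes had it on every array. Among those without signal were the SNAREs Snap25 and Stx11, the ESCRT subunits Chmp4c and Vps37d, and Vps13a. Every other member that is given a level below was well above background on 4 of 4 arrays.

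**Figure D2:**
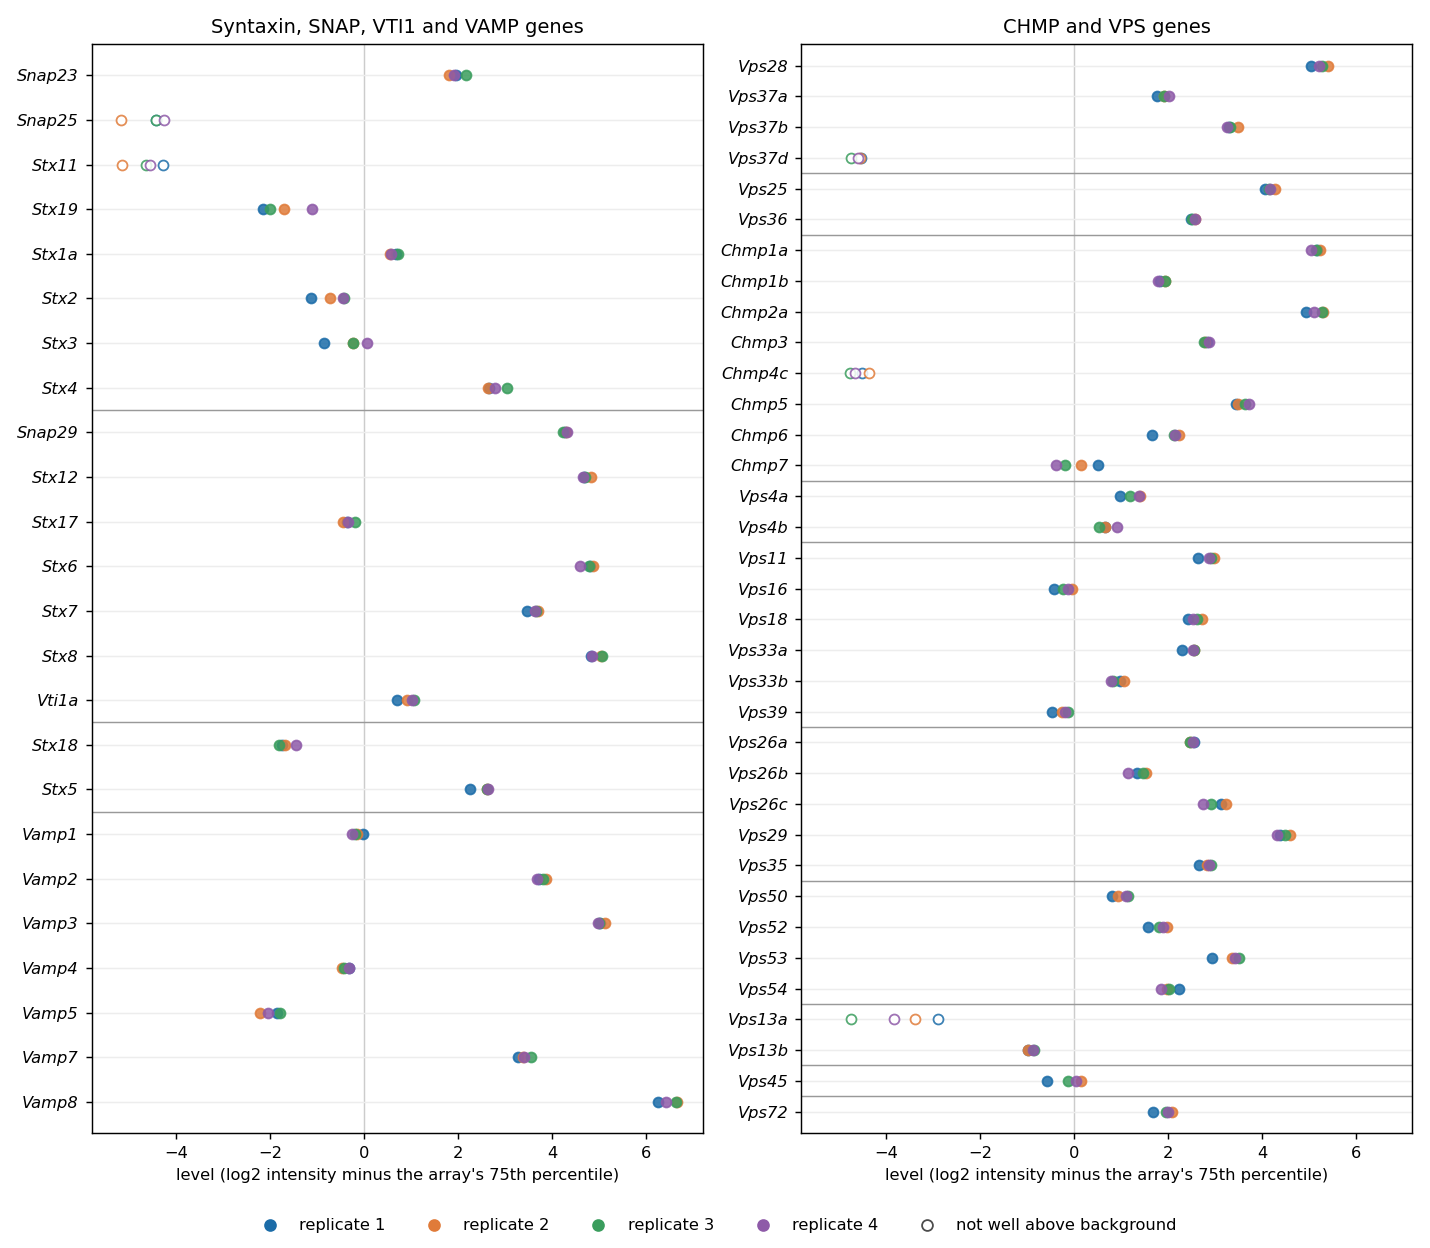
Level of measured members (log2 processed intensity minus the array's 75th percentile, x axis) on the 4 arrays, grouped by role with horizontal lines between groups. Filled points were well above background and open points were not. Points may be compared along a gene's own line only, and the open points have only an upper bound.

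Of 9 Q-SNAREs of the plasma membrane, 6 were detected. Stx4, a syntaxin of the plasma membrane that pairs with Snap23, had levels of 2.65, 2.63, 3.04 and 2.79 on replicates 1, 2, 3 and 4. Replicate 3 was the highest on this probe, and the other arrays lay within 0.16 log2 units. On the further Stx4 probes replicates 2 and 1 were the highest. Snap23, the widely expressed relative of the neuronal Snap25, had levels of 1.94, 1.81, 2.15 and 1.90, with replicate 3 the highest. A second Snap23 probe had levels of -0.12, 0.31, 0.021 and 0.28, with replicate 2 the highest and replicate 1 the lowest. Stx1a, a syntaxin best known from synapses, was detected at 0.62 ± 0.075 (SD, n = 4) on a probe with 10 spots.

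Snap25, the neuronal partner of Stx1a in that fusion machinery, gave no signal above background on any array. The Snap25 probe also had 10 spots, and its processed intensity was between 2.60 and 5.06, against 10.8 to 22.3 for the lowest spots marked well above background on the arrays. Stx11, needed for granule release from cytotoxic lymphocytes, was likewise without signal. Among the 8 neuronal and neuroendocrine markers, Syp, Syn1, Syt1, Chga, Tubb3 and Elavl4 were on no array, Snap91 was on replicate 2 only, and Eno2, a glycolytic enzyme, was on all arrays.

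Stx19, a syntaxin without a transmembrane segment, varied the most between replicates of all detected members. Its levels were -2.15, -1.71, -2.01 and -1.11 on replicates 1 to 4, an SD of 0.46. Replicate 4 stood above the rest, and the value on replicate 1 lay close to the lowest level of any spot well above background there, -2.29. Without replicate 4 the SD was 0.23.

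Stx3, a syntaxin of apical membranes and secretory granules, had levels of -0.85, -0.24, -0.25 and 0.052, an SD of 0.38, with replicate 1 low and replicate 4 high. Stx2, a syntaxin involved in secretion, was measured at -0.68 ± 0.32 (SD, n = 4), also lowest on replicate 1. A second Stx2 probe had levels of -1.21, -1.17, -1.38 and -1.30, an SD of 0.090 with replicate 3 the lowest. With the mean over a gene's probes in place of 1 probe, the SD was 0.102 for Stx3 and 0.135 for Stx2. The further Stx3 probes had SDs of 0.378 and 0.453 alone, and the probe with 0.453 ran opposite to the others.

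Q-SNAREs of the endosome and lysosome were all detected where they had a probe, 7 of 7. Stx7, the late endosomal syntaxin of fusion with lysosomes, had levels of 3.46, 3.70, 3.64 and 3.63 on replicates 1 to 4. Stx8, its partner in the same complex, had levels of 4.83, 5.03, 5.07 and 4.85. Both were lowest on replicate 1 and spanned 0.24 and 0.23 log2 units over the arrays, while the remaining Q-SNARE of that complex, Vti1b, had no matched probe.

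The autophagosome syntaxin Stx17, which brings Snap29 and Vamp8 together for fusion with lysosomes, was measured at -0.36, -0.44, -0.19 and -0.34. The probe used was assigned to a predicted RefSeq transcript, and a second Stx17 probe to a curated one. That second probe was well above background on replicate 2 only, with levels of -2.13, -2.67, -2.55 and -3.04. The Stx17 partner Snap29, with the palindrome in its promoter window, had levels of 4.26, 4.30, 4.22 and 4.31, the second smallest SD of the detected members at 0.041. All 4 arrays of Snap29 thus fell within 0.092 log2 units. This depended on the processing, since its SD was 0.0823 with quantile normalization and 0.161 with normexp background correction.

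Stx12, a syntaxin of recycling endosomes, had levels of 4.67, 4.83, 4.69 and 4.66, so that replicate 2 stood above a tight cluster of the other 3. A second Stx12 probe had levels of 2.64, 2.95, 2.99 and 3.01, with replicate 1 low and replicate 2 not apart. Stx6, which serves the trans-Golgi network and carries the palindrome, was measured at 4.76 ± 0.12 (SD, n = 4), and Vti1a, its usual partner, at 0.92 ± 0.16.

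At the entry to the Golgi, Stx5, the syntaxin for vesicles from the endoplasmic reticulum, had levels of 2.24, 2.60, 2.62 and 2.64. Replicate 1 lay below the nearest other array by 0.36 log2 units, while those 3 differed by 0.040 at most. Stx18, which serves return traffic to the endoplasmic reticulum, was measured at -1.67 ± 0.16 (SD, n = 4).

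All 7 R-SNAREs were detected on all arrays. Vamp8, the R-SNARE of late endosomes, lysosomes and autophagosomes, had levels of 6.24, 6.65, 6.62 and 6.42 on replicates 1 to 4. Vamp7, the R-SNARE of lysosome secretion and of late endosome fusion, had levels of 3.28, 3.38, 3.54 and 3.40. Replicate 1 was the lowest array for both.

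Vamp3, the R-SNARE of recycling endosomes that is known for membrane delivery to the phagocytic cup in macrophages, had levels of 5.01, 5.12, 5.00 and 4.97. Its probe had 10 spots an array, and the SD of their mean between arrays was 0.064, with replicate 2 the highest. The close relatives Vamp1 and Vamp2, best known from synaptic vesicles, were measured at -0.16 ± 0.098 and 3.76 ± 0.089 (SD, n = 4), also on probes with 10 spots. A further probe of Vamp2, designed to another transcript model, had no signal above background on any array, and of the 2 further Vamp1 probes 1 had signal on 2 arrays and the other had signal on none. Vamp4, of the trans-Golgi network, had a level of -0.39 ± 0.078, and Vamp5, known from muscle, one of -1.98 ± 0.19 (SD, n = 4).

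Members of ESCRT-I, ESCRT-II and ESCRT-III were detected, though not every subunit was. The ESCRT-I subunit Tsg101, outside the name rule, had signal on replicate 1 only, as given further below. In ESCRT-I, which receives ubiquitinated cargo, Vps28 had a level of 5.23 ± 0.15, Vps37a of 1.90 ± 0.11 and Vps37b of 3.34 ± 0.10 (SD, n = 4), while the alternative subunit Vps37d had no signal on any array. In ESCRT-II, Vps36, the ubiquitin-binding subunit, had levels of 2.50, 2.57, 2.52 and 2.58 on replicates 1 to 4. This was the smallest spread of any detected member, an SD of 0.037. Vps25, its partner that recruits ESCRT-III, was measured at 4.17 ± 0.080.

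ESCRT-III subunits polymerise on the membrane neck and are removed by the VPS4 ATPases. Chmp2a, a late-acting subunit that recruits VPS4, had levels of 4.94, 5.29, 5.27 and 5.10, and Chmp3, its partner, had 2.84, 2.78, 2.76 and 2.87. Replicate 1 was the lowest array for Chmp2a and the second highest for Chmp3. The main polymer-forming subunit Chmp4b had no matched probe, and its relative Chmp4c, which acts in the abscission checkpoint, had no signal.

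Chmp7, the subunit that starts sealing of the nuclear envelope, had levels of 0.52, 0.16, -0.20 and -0.39, an SD of 0.40. Replicate 1 was here the highest array and replicate 4 the lowest, the reverse of Stx3 at both ends. A second Chmp7 probe had levels of -0.61, -0.69, -0.96 and -0.66, so only replicate 3 lay clearly apart on it.

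The other ESCRT-III genes were Chmp1a at 5.15 ± 0.085, Chmp1b at 1.87 ± 0.074, Chmp5 at 3.58 ± 0.13 and Chmp6 at 2.04 ± 0.25 (SD, n = 4). Vps4a, an ATPase that disassembles the polymer, had levels of 0.98, 1.40, 1.20 and 1.38, and Vps4b had 0.66, 0.66, 0.53 and 0.92. Their replicates ranked differently: Vps4a was lowest on replicate 1 and Vps4b on replicate 3.

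Tethers that act before SNAREs were detected wherever they had a probe. Vps11 had levels of 2.65, 2.98, 2.91 and 2.87 on replicates 1 to 4, Vps16 had -0.42, -0.032, -0.23 and -0.13, and Vps18 had 2.42, 2.72, 2.61 and 2.54. These core subunits of HOPS and CORVET shared the same lowest array, replicate 1, and the same highest, replicate 2. Those were also common extremes elsewhere: replicate 1 was lowest for 39.4% of all tested genes and replicate 2 highest for 38.7%. Vps33a, the core subunit that templates SNARE assembly, had levels of 2.31, 2.55, 2.55 and 2.54, also lowest on replicate 1 and otherwise within 0.014 log2 units.

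Vps39, a subunit found in HOPS and not in CORVET, had levels of -0.46, -0.25, -0.13 and -0.18. Replicate 1 was again lowest, so 5 of the 6 measured tether genes of this group had their lowest value there. The sixth was Vps33b, which works in the CHEVI complex, at 0.92 ± 0.13 (SD, n = 4) and lowest on replicate 4. Over all tested genes 39.4% were lowest on replicate 1, and the 5 genes are subunits of shared complexes measured on the same arrays, so they are not 5 independent observations.

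Retromer returns receptors from endosomes to the Golgi and the cell surface. Vps26a had levels of 2.56, 2.48, 2.46 and 2.54, Vps29 had 4.38, 4.60, 4.48 and 4.32, and Vps35, the scaffold, had 2.65, 2.84, 2.92 and 2.87. No array was lowest for all of them, since the minimum fell on replicates 3, 4 and 1. A second Vps26a probe had levels of 2.13, 2.24, 2.24 and 2.28, with replicate 1 the lowest. On the probe used, Vps26a had an SD of 0.045, smaller than that of every detected member except Vps36 and Snap29. The alternative subunit Vps26b was measured at 1.37 ± 0.17, and Vps26c, which belongs to the related retriever, at 3.00 ± 0.22 (SD, n = 4).

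GARP and EARP tether vesicles from endosomes at the Golgi and at recycling endosomes. The shared subunits Vps52 and Vps53 had levels of 1.82 ± 0.17 and 3.31 ± 0.26, Vps54, specific to GARP, 2.02 ± 0.16, and Vps50, specific to EARP, 1.003 ± 0.16 (SD, n = 4). Vps53 was low on replicate 1 and Vps54 was highest there.

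Of the VPS13 proteins, which carry lipids between membranes, Vps13b was detected at -0.92 ± 0.068, and Vps13a was not well above background with any of its 3 probes. Vps45, the Sec1/Munc18 protein of endosomal syntaxins, was measured at -0.12 ± 0.31, with replicate 1 the lowest. Vps72 qualified by its name but encodes a chromatin protein that deposits a histone variant, and its level was 1.93 ± 0.17 (SD, n = 4).

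The replicates were then compared over all genes. Each gene's variance between arrays was set against that of genes of like brightness, in a one-sided F test on limma's prior with Benjamini-Hochberg adjustment over the 14925 genes that were well above background on at least 2 arrays. In that test 0 of 54 detected members passed an adjusted p of 0.05, against 69 of all tested genes (0.462%), and 0 members had an unadjusted p under 0.05, against 5.07% of all tested genes. The members' adjusted p, from limma, lay between 0.987 and 0.995. The test has low power with 4 arrays, so this does not show that the members did not vary.

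The median SD of the 54 members was 0.136 log2 units, against 0.161 over all tested genes and 0.147 over named ones. Among all genes well above background on every array, as these members were, it was 0.150. Of the members, 14 had an SD under 0.1, 35 had one from 0.1 to 0.3 and 5 had one above 0.3. Those 5 were Stx19, Chmp7, Stx3, Stx2 and Vps45, each with a mean level below 0.1. Only Stx19 and Vps45, which had 1 probe each, kept an SD above 0.3 among these when the probes of a gene were averaged, since Chmp7 then had 0.248, Stx3 0.102 and Stx2 0.135. Each Stx3 probe alone had an SD above 0.3 (0.379, 0.378 and 0.453), and the probe with 0.453 ran opposite to the others. The further probes of Chmp7 and Stx2 had SDs of 0.159 and 0.090. Genes well above background on all arrays had an SD above 0.3 in 11.6% of cases, members in 9.26%.

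**Figure D3:**
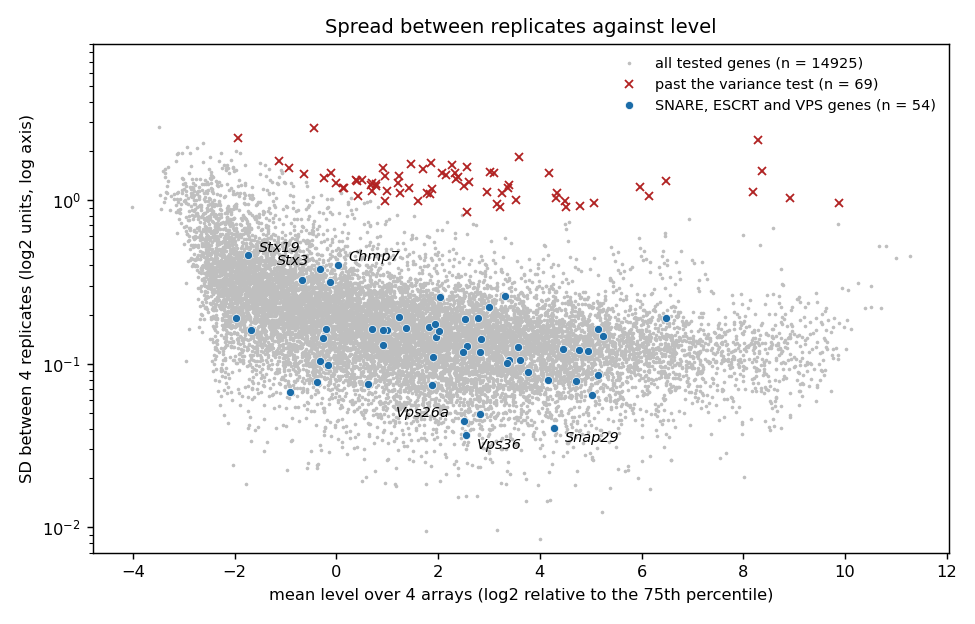
SD between the 4 replicates (log2 units, log axis) against mean level (log2 relative to the 75th percentile) for the 14925 tested genes in grey, the 69 genes past the variance test as crosses and the 54 detected members as filled points. Members lie within the grey cloud, from Vps36 at 0.037 to Stx19 at 0.46, and none is among the crosses.

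Replicate 1 gave the lowest value for more members than any other array. It was lowest for 28 of 54 members (51.9%) and for 39.4% of all tested genes. The median deviation of members from their own mean was -0.10, 0.069, 0.036 and 0.019 log2 units on replicates 1 to 4, and that of all tested genes was -0.045, 0.069, 0.014 and -0.024. With quantile normalization replicate 1 was lowest for 50% of members and 35.4% of all genes, and with normexp background correction for 31.5% and 27.7%. The members' median on replicate 1 shrank to -0.0080 in that last setting. Negative control spots were brightest on replicate 1, where their 99th percentile of processed intensity was 27.1, against 4.95 to 7.40 on the other arrays, and the part of this in the members' values was not tested.

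**Figure D4:**
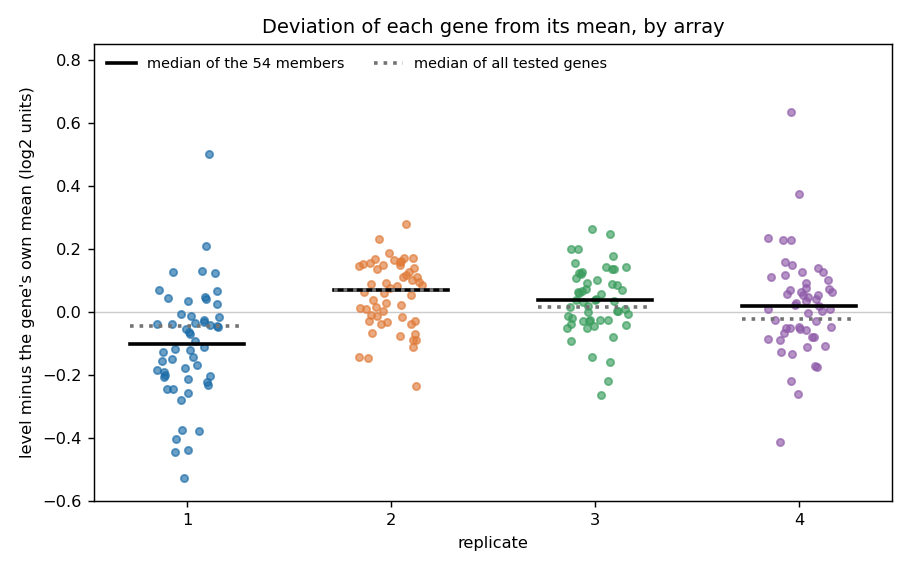
Level minus the gene's own mean (log2 units) for the 54 detected members on each of the 4 arrays, 1 point a gene, with the members' median as a solid line and the median of all tested genes as a dotted line. The solid line is lowest on replicate 1, at -0.10, where the dotted line is at -0.045.

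In pairs of arrays, members differed least between replicates 3 and 4, with a median absolute difference of 0.10 log2 units, and most between replicates 1 and 4, with 0.20. All tested genes had medians of 0.14 and 0.21 in the same pairs. Only Stx19 differed by more than 1 log2 unit in any pair, between replicates 1 and 4, while 5.47% of all tested genes did so in that pair.

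Several members had more than 1 probe, which gave a second reading of the same RNA. Of 21 further probes for 17 genes, 15 probes for 13 genes had signal above background on every array. The sign of replicate 4 minus replicate 1 was the same as on the probe used in 7 of these and opposite in 8. The same array was lowest in 6 of the 15.

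Stx3 shows the disagreement most clearly, with 3 probes designed to different transcript models. The probe used was 0.90 log2 units higher on replicate 4 than on replicate 1, and another probe was 0.83 higher. The remaining probe had levels of -1.35, -2.27, -1.90 and -2.34, a difference of -0.99, so that its highest array was the lowest of the others. Stx4 also had a probe that ran against its others, with a difference of -0.61 against 0.14 and 0.19 on the others.

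For Stx7, Stx8 and Vps52 both probes had the same lowest and the same highest array. The difference between replicates 4 and 1 was 0.17 and 0.023 on the Stx7 probes, 0.022 and 0.48 on the Stx8 probes, and 0.30 and 0.29 on the Vps52 probes. These differences between arrays are within 1 group and have no test of their own.

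**Figure D5:**
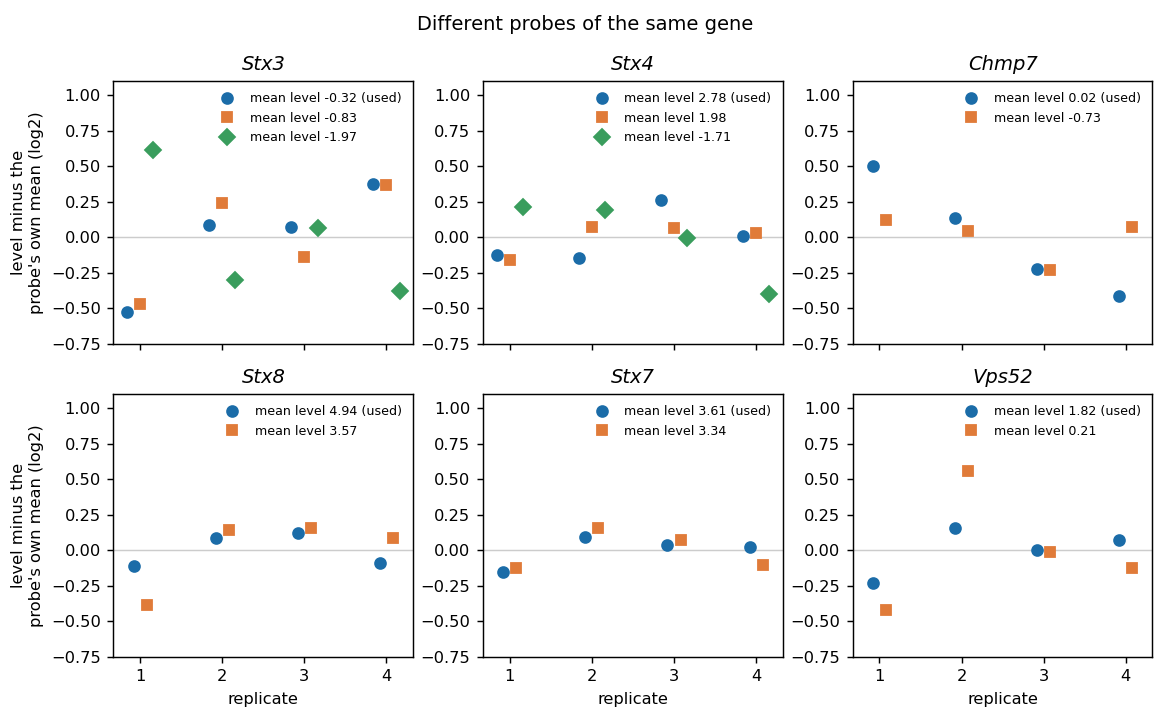
Level minus the probe's own mean (log2 units) on the 4 arrays for 6 members with several probes, 1 colour and marker a probe, with the probe used for the gene's level marked as used. The Stx3 and Stx4 probes drawn as diamonds lie opposite to the others on replicates 1 and 4, while both probes of Stx7, Stx8 and Vps52 share their lowest array.

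Other genes of the same pathways, taken from lists that hold no member, were also broadly detected. Of 61 listed genes 55 had a probe, and 51 of these had signal on every array, 2 on part of them and 2 on none, with 0 past the variance test and a median SD of 0.127. All 10 measured SNAREs outside the name rule were detected, as were all 14 partners of tethers and retromer and all 4 measured genes of the VPS34 lipid kinase complex.

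The 4 exceptions were Napb, the neuronal form of the SNARE-recycling protein SNAP, and Mvb12b, an ESCRT-I subunit, on no array, with Stxbp4 on 3 arrays and Tsg101 on 1. Tsg101, the ESCRT-I subunit that binds ubiquitin, had levels of 0.91, -4.51, -4.73 and -4.64. Replicate 1 thus carried a signal that the other arrays did not, on a probe with 1 spot an array, and the gene was left out of the variance test, while its ESCRT-I partner Vps28 was detected on all 4.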

How the data were processed

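Cy3-labelled RNA of 4 replicates of 1 group was hybridised to 1-colour Agilent arrays on 1 slide in 1 scan. The deposited files give spot intensity on a linear scale from Agilent Feature Extraction 11.0.1.1, background-subtracted and detrended within arrays and not normalized between them, per the file headers (the software also per the submitters' processing notes). From these, log2 processed intensity was averaged over a probe's spots, leaving out control and non-uniform spots (1, 7, 0 and 6), and each array's 75th percentile over probes was subtracted. A probe passed as well above background where 50% or more of its spots carried the software's mark, and a gene where any of its probes passed. The probe with the highest mean gave a gene's level. Probes were named through RefSeq accessions (21094 probes, 46.3%), with promoter windows from RefSeq, GRCr8.

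Variances were tested with limma 3.58.1 in R 4.3.3 (prior degrees of freedom 6.50, trend on mean level). On data simulated from the 14925 tested genes it made 0 calls with no effect, recovered 3 of 200 genes given 4 times their SD and 49 of 200 given 8 times, with 0 false calls. Samples were grouped by the labels. The series design calls the replicates biological and the labels do not say more, so p-values measure only the spread between these samples. Members, lists, tests and motifs were chosen with earlier results of these data known. Members are named, except for 1 item that is not reported here. Values on every array are given for the 3 largest and 3 smallest SDs and for members with 1 array far from the others. They are also given, where a probe was matched, for SNAREs of phagosome, lysosome and autophagosome fusion, HOPS, Chmp2a, Chmp3, Chmp4b, VPS4 and retromer genes. Tsg101 and further probes of Chmp7, Snap23, Stx2, Stx3, Stx12, Stx17 and Vps26a were added after their values were seen. Alternatives covered normalization, background correction, detection, probe choice and leaving out each replicate.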

Additional observations from a re-analysis of the deposited data

Results flagged for a closer look

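For 3 of 54 members (5.56%) 1 array lay far from the other 3, with a gap divided by the whole range above Dixon's critical value for 4 samples. Chance flags about 1 in 20 such groups, and 5.84% of all genes well above background on all arrays met the same rule. Stx12 stood high on replicate 2, at 4.83 against 4.66 to 4.69 on the others, while on its second probe replicate 2, at 2.95, lay between 2.64 on replicate 1 and 3.01 on replicate 4. Stx5 stood low on replicate 1, at 2.24 against 2.60 to 2.64. Vps33a stood low on replicate 1, at 2.31 against 2.54 to 2.55, and its SD fell from 0.119 to 0.00719 without that array.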

How the results depend on the processing

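No member passed the variance test of limma under any alternative run, while the number of all genes past it ranged from 0 (robust prior, prior without trend, or percentile over detected probes) through 1 (quantile normalization) and 234 (normexp) to 358 (no filter on dim probes), against 69 in the reported setting and 27 (without replicate 2) to 162 (without replicate 3) when an array was left out. The median SD of members lay between 0.0961 (without replicate 1) and 0.148. Between 51 (every probe of a gene marked) and 55 (positive and significant mark) of the 60 members were detected on all arrays, where the share of named genes was 43.1% and 56.5%. The members' median on replicate 1 stayed below 0 in each setting that kept that array, but other arrays changed sign: replicate 2 to -0.00878 with the percentile over detected probes, and replicates 3 and 4 to -0.0246 and -0.0614 with normexp and to -0.00601 and -0.0238 without replicate 1. Without replicate 1 a gene's own mean covers the remaining arrays only, so the deviations there have a different reference. The cause of the other changes of sign was not tested. Single SDs changed by more than 1.5 times for 27 of 54 members with normexp and for 21 without replicate 1. Normexp used median signals, an alternative chosen after seeing the data, because the files hold no mean signal, and slide as a block was not run with 1 slide. No paired analysis was possible because there was 1 group. Levels within reach of background, such as that of Stx19, are the least precise.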
